A study of Bos taurus with 28 samples.

Results

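The genes followed here are the 3 myosin heavy chains that mark the fibre types of adult limb and trunk muscle in cattle: MYH7 (ENSBTAG00000009703), MYH2 (ENSBTAG00000007090) and MYH1 (ENSBTAG00000018204). They were chosen by identifier, as 3 of the 24616 gene identifiers in the deposited count files, and all 3 passed the filter on low counts that left 11288 genes for testing. For each gene the level was followed as CPM, the count scaled to a common library total with TMM factors for library composition, and as a share of the summed counts of the 3 genes. The files carry identifiers only and 0 of them matched a symbol in the RefSeq gene table, so the pairing of the 3 symbols with these identifiers comes from outside the files and was not tested, and the muscle label could not be checked by other marker genes.

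Biopsies came from 12 male crossbred steers (Aberdeen Angus by Holstein Friesian), with 6 in the control group, fed for high energy, and 6 in the energy restricted group. Every steer was biopsied at day 99 and a second time at day 131. Until day 99 control animals had free access to concentrates plus 7 kg of grass silage daily, while restricted animals had free access to grass silage plus only 0.5 kg of concentrate daily. From day 99 both diets were replaced by a mixed ration of silage and concentrate in the ratio 80 to 20, so the restricted steers at day 131 were 32 days past restriction, in the phase of compensatory growth, and the control steers had also changed feed. The muscle that was biopsied is not named in the sources used here. The 4 groups thus hold 6 samples each, and the total count per sample ran from 3342314 to 24376288 with a median of 7872307.

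Myosin heavy chain is the motor of the thick filament, and the isoform a fibre makes sets how fast it splits ATP and shortens. MYH7 encodes the slow chain of type I fibres, which rely on oxidative metabolism, and the same gene serves the ventricle of the heart. MYH2 encodes the chain of fast oxidative type IIA fibres and MYH1 that of fast type IIX fibres, which lean more on glycolysis. In the RefSeq annotation of the ARS-UCD2.0 assembly MYH1 and MYH2 are neighbours on chromosome 19 within the cluster of fast and developmental myosins, while MYH7 lies on chromosome 10 beside MYH6. These chains are close relatives in sequence, so reads from shared stretches may have been lost or split between identifiers. That was not tested.

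All 3 genes were among the most abundant in every sample. By raw count MYH7 ranked between 4 and 13 of all identifiers and stood among the top 10 in 15 of 24 samples. MYH1 ranked between 3 and 42 and MYH2 between 9 and 72. Together the 3 genes held 2.42% ± 0.516 of all counts (SD, n = 24 samples), from 1.38% in control steer 1 at day 131 to 3.34% in restricted steer 3 at day 99. Of their summed counts MYH7 held 46.1% ± 11.2, MYH1 34.0% ± 7.21 and MYH2 19.8% ± 5.40 (SD, n = 24). These are shares of read counts, not of transcripts or fibres, because no transcript lengths were used here to put the 3 genes on one scale. In bulk tissue, fewer fibres of a type and less RNA per fibre cannot be told apart.

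Counting error was small beside the spread between the biopsies of a group. Each gene had between 7949 and 245557 counts in a sample, and the 95% Wilson interval of a share was at most ± 0.378 percentage points wide, which covers counting error only. In the 3 samples sequenced as several technical libraries, all within run 1, a gene's share differed by at most 0.149 percentage points between libraries and its unscaled CPM by at most 2.79%. Samples of the same group differed far more, by an SD of 3.16 to 16.6 percentage points in share. That spread holds differences between animals, biopsies and runs, which cannot be told apart.

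MYH7, the slow chain, had its highest mean in restricted steers at day 131. In the day 99 control group it ran from 5367 to 13507 CPM with a median of 10067 and a mean of 9985 ± 2860 (SD, n = 6). In the restricted group of that day it ran from 5838 to 14239 CPM, with a median of 11588 and a mean of 10998 ± 3285 (SD, n = 6). At day 131 the control steers spanned 4714 to 13840 CPM with a median of 10547 and a mean of 9820 ± 3014 (SD, n = 6), and the restricted steers spanned 9589 to 17017 CPM with a median of 13868 and a mean of 13833 ± 3035 (SD, n = 6). In ascending order the means were control day 131, control day 99, restricted day 99 and restricted day 131, and the ranges of neighbouring groups overlapped throughout. The 3 highest samples were restricted steers 3, 4 and 2 at day 131, at 17017, 16826 and 15439 CPM.

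MYH2, the type IIA chain, was lowest on average in control steers at day 131. It ran from 4007 to 8286 CPM in the day 99 control group (median 4371, mean 5098 ± 1661, SD, n = 6) and from 2831 to 8229 CPM in the restricted one (median 4740, mean 4998 ± 2163). At day 131 it ran from 2110 to 7057 CPM in control steers (median 3165, mean 3726 ± 1994, SD, n = 6) and from 3501 to 7372 CPM in restricted steers (median 6328, mean 5756 ± 1511). Control steers 1, 3 and 4 at day 131 held the 3 lowest values of the 24 samples, at 2132, 2167 and 2110 CPM, and control steer 2 of the same group was at 7057 CPM. All groups overlapped, and the ascending order of the means was control day 131, restricted day 99, control day 99 and restricted day 131. That order depended on TMM scaling. On unscaled library totals MYH2 averaged 0.548% of counts in control and 0.534% in restricted steers at day 99. Restricted steers at day 131 averaged 0.508%.

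MYH1, the type IIX chain, had its group means in the same order as MYH2. It ran from 6551 to 11775 CPM in the day 99 control group (median 9015, mean 9084 ± 2036, SD, n = 6) and from 3592 to 12976 CPM in the restricted one (median 8090, mean 8208 ± 3163). At day 131 the control steers ran from 4009 to 10829 CPM (median 6518, mean 6780 ± 2497, SD, n = 6) and the restricted steers from 6597 to 14979 CPM (median 8257, mean 9246 ± 3185). Restricted day 131 and control day 99 differed by less than the spread of either group, and the median was higher in the control group. On unscaled library totals the mean was also higher in control steers at day 99, at 0.985% of counts. Restricted steers averaged 0.864% at day 99 and 0.816% at day 131. Single steers set the extremes, with restricted steer 1 lowest at day 99 (3592 CPM) and restricted steer 4 highest at day 131 (14979 CPM).

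**Figure D1:**
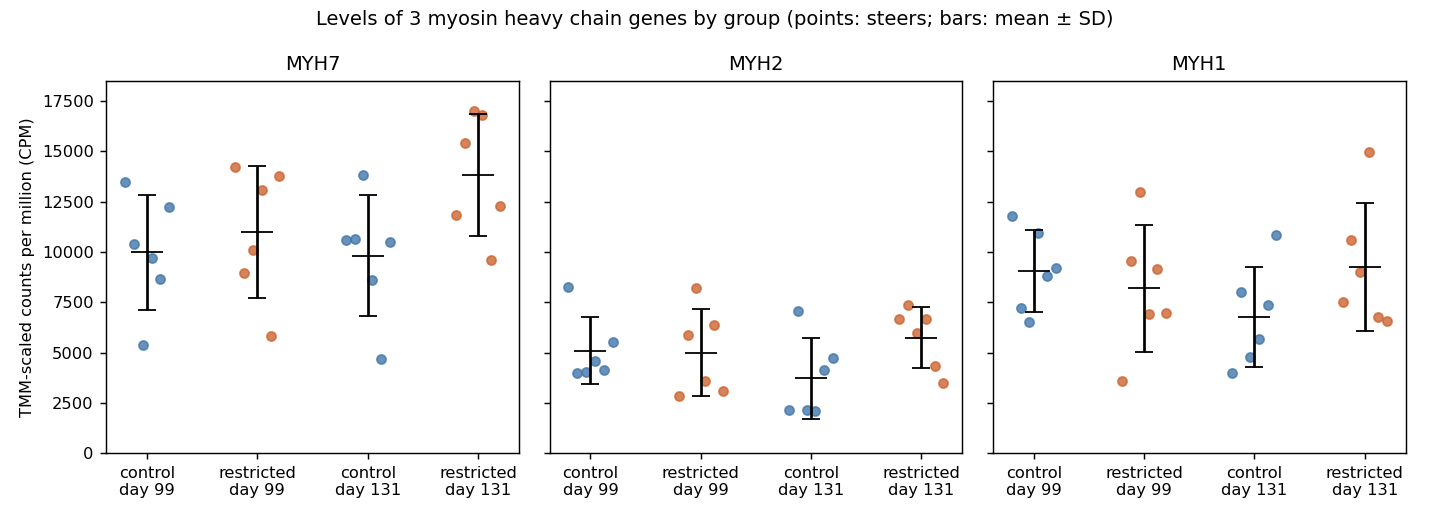
TMM-scaled CPM of MYH7, MYH2 and MYH1 (y axis) in the 4 groups (x axis), with 1 point for each steer and a bar for the mean ± SD of 6 steers. Restricted steers at day 131 have the highest MYH7 mean (13833 CPM), control steers at day 131 the lowest MYH2 and MYH1 means (3726 and 6780 CPM), and all groups overlap.

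At the end of restriction no difference between the diets passed the test for any of the 3 genes. By edgeR's quasi-likelihood test over all 11288 genes, restricted steers at day 99 differed from control steers by 0.14 ± 0.26 on the log2 scale for MYH7 (SE), by -0.03 ± 0.32 for MYH2 and by -0.15 ± 0.28 for MYH1, each with an adjusted p of 0.9998. The median log2 difference of the members was -0.03 and that of all genes tested -0.02. None of the 3 was called, against a background of 0% of the genes tested (0 by edgeR, 20 by DESeq2 and 1 by limma voom). By edgeR 486 genes, or 4.31%, had an unadjusted p under 0.05. Within the 4 sequencing runs the MYH7 difference in mean log2 CPM ran from -0.59 to 0.57, that of MYH2 from -0.73 to 1.01 and that of MYH1 from -0.63 to 0.77. The sign thus changed between runs for each gene, with only 1 or 2 steers a side in a run. The MYH2 difference turned to 0.04 without the filter on low counts and to 0.03 with run as a covariate.

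At day 131, with all steers on the same ration, the 3 genes all had higher means in the previously restricted steers, and no difference passed the test. The log2 difference was 0.49 ± 0.26 for MYH7 (SE, a ratio of 1.41, edgeR unadjusted p = 0.0701), 0.63 ± 0.32 for MYH2 (a ratio of 1.54, unadjusted p = 0.057) and 0.45 ± 0.28 for MYH1 (a ratio of 1.36, unadjusted p = 0.124). After adjustment over all genes each p was 0.9998. The median of the members was 0.49, beside -0.02 for all genes tested, and 0% of genes were called (0 by edgeR, with 196 at an unadjusted p under 0.05, 3 by DESeq2 and 0 by limma voom). A smaller p than that of MYH7 was found for 2.77% of the genes tested, than that of MYH2 for 2.06% and than that of MYH1 for 6.14%. Over the 3 genes the same percentage ran from 55.7% to 92.1% between diets at day 99. It ran from 48.6% to 76.3% between days in restricted steers and from 18.2% to 95.95% between days in control steers. For the diet by day interaction, described below, it ran from 7.73% to 22.9%. Between diets at day 131, 1.74% of all genes had an unadjusted p under 0.05 by edgeR. Within runs 2, 3 and 4 the difference in mean log2 CPM was 0.23, 0.45 and 0.74 for MYH7, 1.62, 0.605 and 0.86 for MYH2, and 1.03, 0.59 and 0.15 for MYH1. These rest on 1 or 2 steers a side, and run 1 held no restricted steer at day 131. The size depended on the scaling of the libraries: on unscaled library sizes the differences fell to 0.36, 0.35 and 0.17 in the same gene order, with the sign kept. Single samples moved it too: MYH7 was at 0.31 without control steer 5 at day 131, MYH1 at 0.23 without restricted steer 4, and leaving out samples in turn gave 0.31 to 0.62 for MYH7, 0.51 to 0.91 for MYH2 and 0.23 to 0.62 for MYH1. The TMM factor, which corrects a library for its composition, averaged 0.895 ± 0.0807 in restricted and 1.04 ± 0.278 in control steers at day 131 (SD, n = 6). The differences on unscaled library sizes above are those without this factor, and what sets the factor was not tested.

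From day 99 to day 131 the mean of each gene was higher in restricted steers, and no difference passed the test. The log2 difference for MYH7 was 0.33 ± 0.26 (SE, edgeR adjusted p = 0.447), with 4 of 6 animals higher at the later biopsy. For MYH2 it was 0.20 ± 0.32 (adjusted p = 0.697) with 4 of 6 steers higher, and for MYH1 0.17 ± 0.28 (adjusted p = 0.716) with 3 of 6 higher, and on unscaled library sizes both turned, to -0.07 and -0.08. The unadjusted p by edgeR was 0.217 for MYH7, 0.524 for MYH2 and 0.547 for MYH1. An unadjusted p under 0.05 by edgeR was found for 2116 genes, or 18.7% of those tested. None of the 3 was among the 43 genes called in this comparison, which were 0.381% of those tested. That count moved to 86 by limma voom with the steer as a block, 65 by limma voom without it and 239 by DESeq2, and leaving out single samples gave 21 (without restricted steer 5 at day 99) to 153 (without restricted steer 6 at day 99). It was 141 without control steer 5 at day 131, 22 and 24 without restricted steers 2 and 3 at day 99, and 25 without restricted steer 4 at day 131. The members' median log2 difference was 0.20 and that of all genes -0.07. Within runs 2, 3 and 4 the MYH7 difference in mean log2 CPM was 0.83, 0.51 and -0.33, that of MYH2 0.65, -0.77 and 0.69, and that of MYH1 0.76, -0.38 and 0.04. These compare different steers, 1 or 2 a side.

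In control steers over the same days the 2 fast chains had lower means at day 131, and no difference passed the test. The log2 difference for MYH2 was -0.45 ± 0.32 (SE, edgeR unadjusted p = 0.163, adjusted p = 0.722) and that for MYH1 -0.42 ± 0.28 (unadjusted p = 0.146, adjusted p = 0.722). Each was lower at day 131 in 4 of 6 steers. For MYH7 it was -0.02 ± 0.26 (edgeR adjusted p = 0.967), with 4 of 6 steers lower, and its sign turned with median-ratio size factors (0.06). The widest drops of both were in control steer 1, whose MYH2 went from 8286 to 2132 CPM and whose MYH1 went from 11775 to 4009 CPM. Without this steer's day 99 sample the MYH2 difference was -0.23, without its day 131 sample the MYH1 difference was -0.28 and the MYH2 difference -0.31, and without control steer 2 at day 131 the MYH2 difference was -0.74. Within runs 1 to 4 the difference in mean log2 CPM was negative in each for MYH2 (-0.99 to -0.23) and MYH1 (-0.89 to -0.20), and for MYH7 it ran from -0.94 to 0.63. Because both biopsies of a steer were never in the same run, these values compare different steers, 1 or 2 a side, and run 1 sets control steer 2 at day 131 against control steer 1 at day 99. The background was 0% of genes called (0 by edgeR, DESeq2 and limma voom). By edgeR 439 genes, or 3.89%, had an unadjusted p under 0.05. The members' median was -0.42, beside -0.10 for all genes tested.

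The diet by day interaction asks whether the change over time differed between the diets. It was 0.35 ± 0.37 on the log2 scale for MYH7 (SE), 0.66 ± 0.45 for MYH2 and 0.59 ± 0.40 for MYH1, each with an edgeR adjusted p of 0.9998. The unadjusted p was 0.347, 0.152 and 0.147 in the same gene order, by edgeR. Of the genes tested, 0% were called (0 by edgeR, 2 by DESeq2 and 0 by limma voom). By edgeR 283 genes, or 2.51%, had an unadjusted p under 0.05. The members' median was 0.59 and that of all genes -0.03. With the steer as a block in edgeR, none of the 3 genes was called in either comparison between days or in the interaction.

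**Figure D2:**
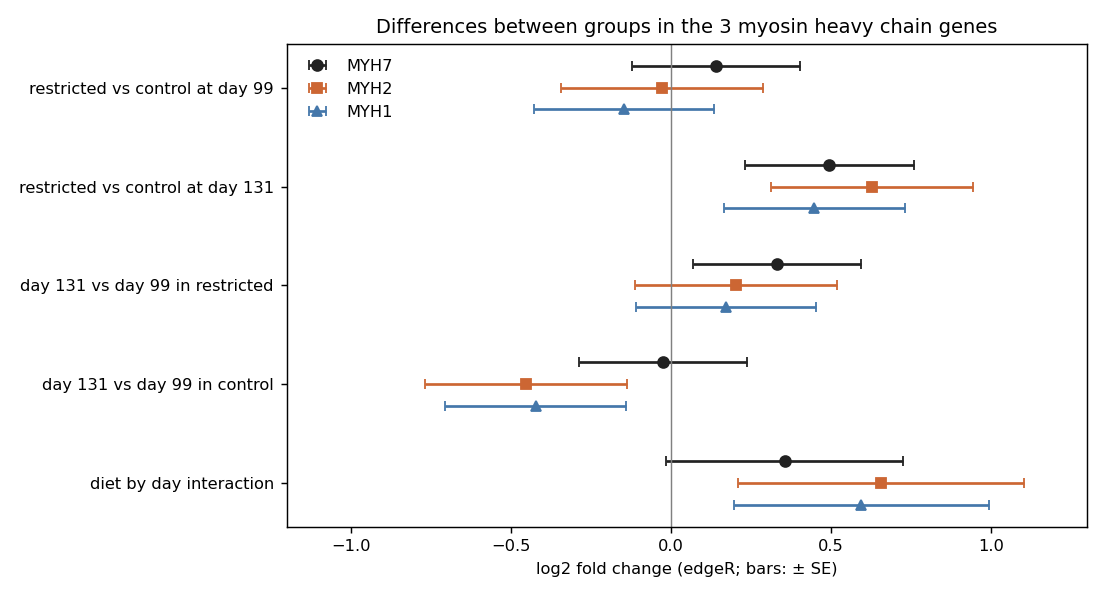
Log2 fold changes of the 3 genes (x axis) in the 5 comparisons (y axis), fitted with edgeR over all genes, with bars for ± SE. The 3 differences at day 131 lie between 0.45 and 0.63 and those of MYH2 and MYH1 between days in control steers at -0.45 and -0.42, and no point passed the adjusted test.

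The share of each gene in the summed counts of the 3 does not depend on library scaling. At day 99 MYH7 held 41.0% ± 5.14 of the sum under the control diet (SD, n = 6) and 46.4% ± 16.6 under the restricted one, and at day 131 it held 48.9% ± 14.6 and 48.3% ± 4.57. MYH1 held 38.0% ± 4.24, 33.3% ± 9.79, 33.3% ± 9.09 and 31.6% ± 3.99 in the same order of groups. MYH2 held 21.1% ± 3.16, 20.3% ± 7.25, 17.9% ± 7.19 and 20.1% ± 3.60. The largest difference of means was in the MYH7 share of control steers, 7.87 percentage points higher at day 131 than at day 99. The exact two-sided permutation p was 0.24 unpaired and 0.344 by sign flips within steers, and the ranges of the groups overlapped. Leaving out samples in turn moved this difference from 4.33 (without control steer 3 at day 131) to 11.8 (without control steer 5 at day 131), and it was 4.98 without control steer 1 at day 131.

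None of the 15 comparisons of shares (3 genes in 5 comparisons) passed an exact permutation test. The smallest unadjusted p was 0.24 and every adjusted p over the 15 was 0.935. In the comparisons between days the 2 biopsies of a steer were treated as unpaired. A test of 6 against 6 allows a p as small as 0.00216, which for those comparisons ignores the pairing. The interaction was tested on the difference between days of each steer, which keeps the pairing. It was -5.96 percentage points for the MYH7 share, 2.91 for MYH2 and 3.06 for MYH1. The exact permutation p was 0.569, 0.563 and 0.6 in that order. Between diets at day 99, the MYH7 share was higher in restricted steers by 5.40 percentage points (exact permutation p = 0.47) and the MYH1 share lower by 4.68 (difference -4.68, exact permutation p = 0.335). Without restricted steer 1 the MYH7 difference was 0.896 and without restricted steer 5 it was 9.22. It was 3.14, 3.59 and 8.23 without restricted steers 6, 4 and 3. At day 131 the diets differed by -0.562 points for MYH7 (exact permutation p = 0.92), 2.18 for MYH2 (exact permutation p = 0.513) and -1.62 for MYH1 (exact permutation p = 0.703). Sign flips within steers, which keep the 2 days of an animal together, gave exact permutation p-values of 0.312 to 1 for the 6 comparisons between days, where 6 pairs allow no p below 0.0312. Within runs, with 1 or 2 steers a side, the differences of MYH7 shares between days ran from -4.59 to 23.3 points in control and from -10.7 to 17.1 in restricted steers. Those between diets ran from -4.57 to 11.2 at day 99 and from -16.9 to 5.08 at day 131.

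Shares differed a great deal between the 2 biopsies of single animals. These were sequenced in different runs, so change in the animal, biopsy and run cannot be told apart. Among restricted steers at day 99 the MYH7 share was 27.3%, 32.3% and 36.7% in steers 5, 3 and 2, and 55.4%, 57.7% and 68.9% in steers 4, 6 and 1. At day 131 the group spanned 43.7% to 54.9%, and the share was higher than at day 99 in 3 of 6 steers. Restricted steer 1 went from 68.9% to 45.5% and restricted steer 3 from 32.3% to 53.2%. Control steers spanned 33.6% to 48.1% at day 99 and 29.0% to 66.6% at day 131. Control steer 3 was higher by 33.0 percentage points at day 131, control steer 1 by 23.1 and control steer 4 by 14.1. Control steer 5 went from 40.0% to 29.0%, and control steers 2 and 6 differed by -6.74 and -5.11 points. Control steer 3 at day 99, restricted steer 5 at day 99 and control steer 5 at day 131 had high TMM factors. These were 1.69, 1.37 and 1.59. The differences in spread were not tested.

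**Figure D3:**
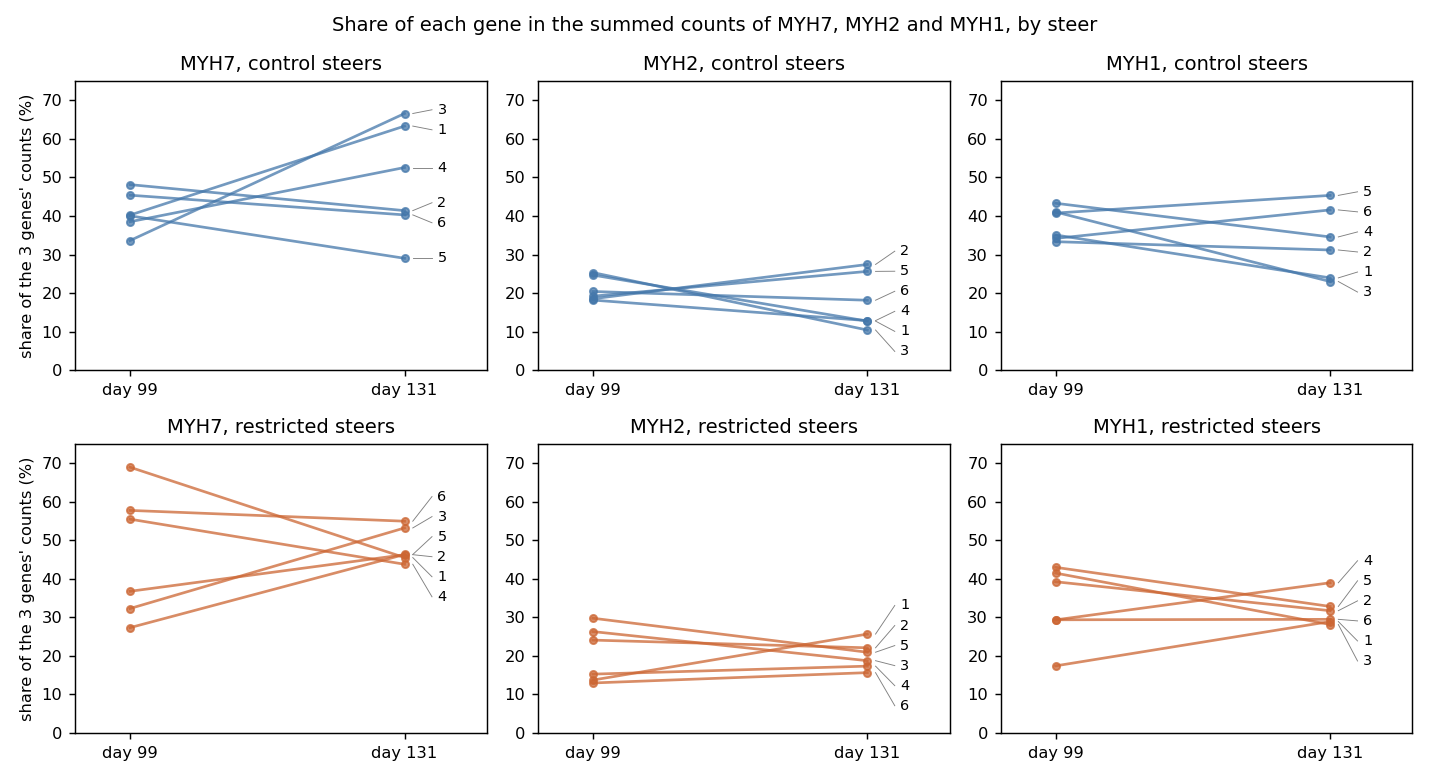
Share of MYH7, MYH2 and MYH1 in the summed counts of the 3 genes (y axis, percent) at day 99 and day 131 (x axis), with 1 line for each steer, numbered at the right. Restricted steers spread from 27.3% to 68.9% for MYH7 at day 99 and from 43.7% to 54.9% at day 131, while control steers spread from 33.6% to 48.1% and then from 29.0% to 66.6%.

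No correlation was detected between a steer's level at day 99 and its level at day 131. Over the 12 steers, with group means removed, the log2 CPM of the 2 days gave Pearson r = 0.0756 for MYH7 (permutation p = 0.818, Spearman rho = -0.126, permutation p = 0.7), r = -0.12 for MYH2 (permutation p = 0.706, rho = -0.049, permutation p = 0.886) and r = 0.000814 for MYH1 (permutation p = 0.998, rho = -0.0839, permutation p = 0.801). Without the 2 steers farthest from the median, r was 0.242, 0.0457 and -0.212. Every adjusted p over the 6 correlations computed was at least 0.886 for these 3. The 2 biopsies of a steer were sequenced in different runs, so no value within a run can be given.

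Across samples the 2 fast chains were high or low together. Over all samples the slow chain had little rank order with either, although the sign differed between the days. Over the 24 samples, which hold 2 from each steer and share the scaling of their libraries, the Spearman rho of log2 CPM between MYH2 and MYH1 was 0.84. Among the 6188 other genes with a mean of at least 10 CPM, each of the 2 was the most similar gene to the other, although this first place depended on the scaling and the samples used. MYH7 gave a rho of 0.11 with MYH2 and of 0.07 with MYH1, and 58.9% and 60.4% of the genes were more like MYH7 than these were. On unscaled CPM the rho of MYH2 with MYH1 was 0.81, while those of MYH7 turned to -0.15 and -0.13. The rho of MYH2 with MYH1 was 0.86 in control and 0.83 in restricted steers, and 0.88 at day 99 and 0.80 at day 131. That of MYH7 with MYH2 was -0.38 at day 99 and 0.46 at day 131, and that of MYH7 with MYH1 was -0.16 and 0.39.

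With the steer as the unit, the relation between the fast chains did not pass the adjusted threshold. The mean deviations of the 12 steers from their group means gave r = 0.681 between MYH2 and MYH1 (permutation p = 0.0152, adjusted p = 0.091 over 6 correlations, rho = 0.601, permutation p = 0.043, adjusted p = 0.258). Without the 2 farthest steers r was 0.567. The relation passed the threshold on CPM without TMM scaling (r = 0.761, permutation p adjusted to 0.0242) and without control steer 4 (r = 0.749, adjusted to 0.0473). MYH7 gave r = 0.0974 with MYH2 (permutation p = 0.766, rho = 0.329, permutation p = 0.294, r = 0.346 without the 2 farthest steers) and r = 0.111 with MYH1 (permutation p = 0.736, rho = 0.28, permutation p = 0.379, r = 0.291 without the 2 farthest steers).

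The ratio of MYH2 to MYH1 counts still varied between animals. At day 99 it averaged 0.561 ± 0.103 under the control diet (SD, n = 6) and 0.615 ± 0.123 under restriction, and at day 131 it averaged 0.54 ± 0.18 and 0.644 ± 0.152. The lowest ratio was 0.372 in control steer 4 at day 131 and the highest 0.887 in restricted steer 1 at day 131. The ranges of the groups overlapped.

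**Figure D4:**
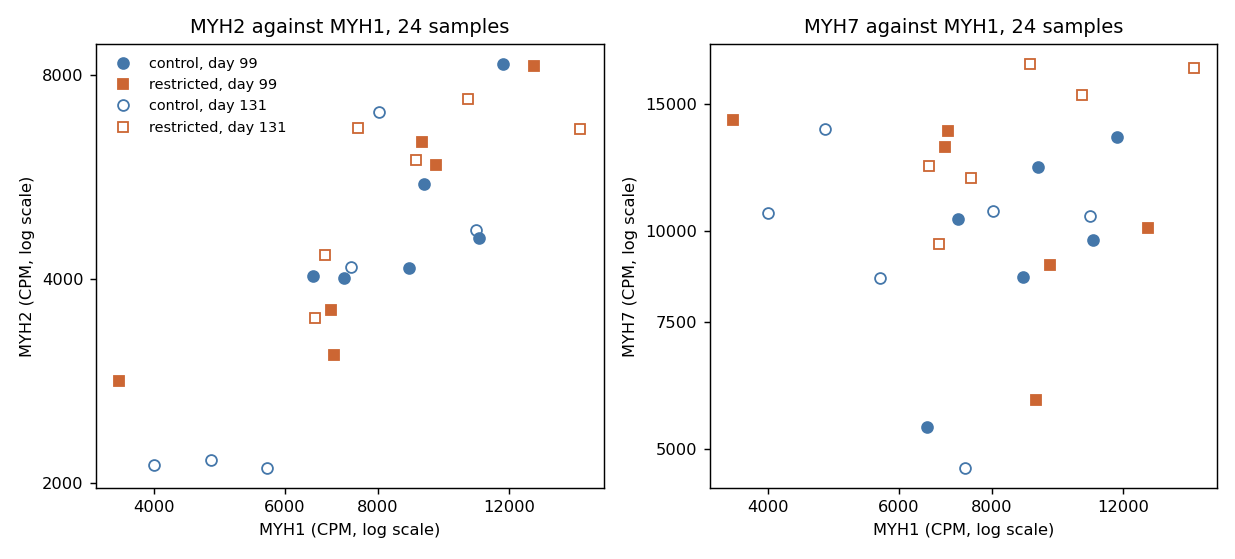
CPM of MYH2 (left, y axis) and MYH7 (right, y axis) against MYH1 (x axes) in the 24 samples, all axes on a log scale, with colour and symbol for diet and filled or open symbols for day 99 or day 131. MYH2 is higher where MYH1 is higher (rho = 0.84), whereas MYH7 has little order with MYH1 over all samples (rho = 0.07, with -0.16 at day 99 and 0.39 at day 131). In 3 low samples MYH7 is at 4714 to 5838 CPM.

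By the same measure the genes most like MYH7 were ENSBTAG00000040053 (rho = 0.93, mean 107 CPM) and ENSBTAG00000010880 (rho = 0.89, mean 4267 CPM), over 24 samples. They were chosen for the highest rho of the 6188 genes, whose median rho was 0.30, and on unscaled CPM they were at 0.83 and 0.70. ENSBTAG00000040053 averaged 147 ± 60.3 CPM in restricted steers at day 131 and 90.8 ± 27.5 CPM in control steers (SD, n = 6), a log2 difference of 0.69 ± 0.28 (SE, edgeR adjusted p = 0.9998). The gene was chosen for following MYH7 in these same samples, so its difference is not an observation separate from that of MYH7. After MYH1, the gene most like MYH2 was ENSBTAG00000047174 (rho = 0.72, mean 446 CPM). On unscaled CPM it stood at 0.811 against 0.81 for MYH1, and at day 99 alone at 0.95 against 0.88. After MYH2, the gene most like MYH1 was ENSBTAG00000018855 (rho = 0.74, mean 24.2 CPM), and in control steers alone it stood at 0.92 against 0.86 for MYH2. None of these 4 genes passed the edgeR test in any of the 5 comparisons.

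MYH7 also varied with the composition of the library. Its CPM had a Spearman rho of -0.81 with the TMM factor over the 24 samples, where MYH2 gave 0.05 and MYH1 0.14. The factor enters the CPM but not the share, and the rho of the MYH7 share with it was -0.71, that of the MYH1 share 0.75 and that of the MYH2 share 0.44. Control steer 3 at day 99, restricted steer 5 at day 99 and control steer 5 at day 131 had TMM factors of 1.37 to 1.69, against 0.786 to 1.13 in the other 21 samples. In these 3 samples MYH7 was at 4714 to 5838 CPM and held 27.3% to 33.6% of the 3 genes' counts, the lowest level and share of its group in each, while the other samples had 8624 to 17017 CPM. The 3 samples were set apart by the factor that divides the CPM. On unscaled library totals MYH7 held 0.747% to 0.906% of counts in them, again the lowest of each group. That range overlapped other samples, such as control steer 4 at day 131 at 0.871%. Their shares overlapped others too, with 32.3% in restricted steer 3 at day 99. Of the 3 samples with high TMM factors, only restricted steer 5 at day 99 enters the comparison between days in restricted steers. Without that sample the MYH7 share differed by -1.91 percentage points, against 1.91 with it. Without all 3 samples no comparison of a share or a level passed its test. What sets the composition of these libraries was not tested.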

How the data were processed

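Poly(A)-selected RNA from muscle biopsies was sequenced as paired-end libraries, per the labels' protocols. The authors deposited raw gene counts by Ensembl identifier, with a separate file for each of 28 libraries. The submitters' processing notes name the build UMD3.1 and the tools HTSeq, SAMtools, Bowtie and CASAVA 1.4. The annotation release was not given in the sources used here, nor were other versions or the strand setting.

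Technical libraries of 1 steer and day (7 libraries of 3 samples) were summed, leaving 24 samples and 4 groups of 6. The file names carry a run date, which gave 4 runs. Genes were kept by filterByExpr (minimum count 10), libraries scaled by TMM, and the 4 groups fitted together in edgeR 4.0.16 (R 4.3.3) with the robust quasi-likelihood test, two-sided, with Benjamini-Hochberg adjustment over 11288 genes at 0.05. Each SE came from the fold change and its F statistic (log2 change over root F), and log2 CPM used a prior count of 2. Exact permutation tests, two-sided, served for the shares, unpaired between days, with sign flips within steers as an alternative. For the interaction of shares the diets were permuted over the differences between days of each steer. The correlations had 100000 permutations (two-sided, log2 CPM as deviations from group means), in Python 3.11.15 with scipy 1.17.1. The code was tested on simulated data. Alternatives used DESeq2 1.42.0, limma 3.58.1, other scalings and filters, run as a covariate, a steer block and the omission of single samples.

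Both days of a steer come from 1 animal per the labels. Deviations from group means correlated across genes with a median r of 0.158 (range -0.605 to 0.52, over 0.1 in 8 of 12 steers). The named genes are the 3 members and, for each, the 2 genes with the highest Spearman rho of log2 CPM and a mean of at least 10 CPM. Lists of other fibre-type genes and of cell type markers could not be run without symbols. The members, lists and tests were chosen with earlier results of these data known.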

Additional observations from a re-analysis of the deposited data

Results flagged for a closer look

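In 24 groups of 6 values (level and share of 3 genes in 4 groups), 1 sample stood far from the others of its group, where chance marks about 5% of groups. MYH2 in control steer 1 at day 99 was at 8286 CPM, and the next highest of the group was at 5510 CPM. Its 2 technical libraries gave 7363 and 7170 CPM before scaling. The MYH2 share in this sample, 24.7%, was not the highest of its group.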

How the results depend on the processing

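Fits on unscaled library sizes and the likeness of genes under other scalings and subsets of samples were chosen after seeing the data. No log2 fold change of a member passed the threshold in any of 501 alternative values (smallest adjusted p = 0.263), and no share did in 282 (smallest 0.705). The replicate block changed no call of a member: with it in edgeR the differences between days were 0.37, 0.27 and 0.21 in restricted steers and -0.05, -0.56 and -0.47 in control steers for MYH7, MYH2 and MYH1, and 62 genes were called between days in restricted steers. Sign flips of the shares could not pass alone, since 0.0312 is the smallest p that 6 pairs allow before adjustment over 15 comparisons. Shares per coding length could not be run, as no lengths were used here.

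The number of genes called at day 99 between diets was 20 by DESeq2, 2 with median-ratio size factors and 1 by limma voom with or without the replicate block, and 0 to 5 when a sample was left out. Between diets at day 131 DESeq2 called 3. Between days in restricted steers the 43 became 239 by DESeq2, 92 with only those 2 groups, 66 without samples with a TMM factor over 1.3, and 65 and 86 by limma voom without and with the replicate block, and 21 (without restricted steer 5 at day 99) to 153 (without restricted steer 6 at day 99) on leaving samples out. The interaction gave 2 by DESeq2 and 0 to 1 on leaving samples out.

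Sign changes of log2 fold changes were these. Between days in control steers MYH7 turned from -0.02 to 0.06 (DESeq2, 0.0565, and median-ratio size factors, 0.0565), 0.00143 without the filter, 0.00689 with run as covariate and 0.0287 without the samples with high TMM factors (-0.15 to 0.16 on leaving samples out). Between diets at day 99 MYH2 turned to 0.037 without the filter and 0.0287 with run as covariate (-0.23 to 0.18 on leaving samples out), and MYH1 ran from -0.32 to 0.00904. Between days in restricted steers MYH2 and MYH1 turned to -0.0728 and -0.0832 without TMM, and MYH1 ran from -0.0191 to 0.35 on leaving samples out.

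Without a change of sign, leaving samples out gave 0.05 to 0.27 for MYH7 between diets at day 99, 0.20 to 0.43 for MYH7 and 0.09 to 0.41 for MYH2 between days in restricted steers, and 0.16 to 0.48, 0.44 to 0.94 and 0.36 to 0.77 for the interaction of MYH7, MYH2 and MYH1.

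Sign changes of shares, in percentage points, were these. Between days in restricted steers MYH2 turned from -0.282 to 0.0307 as a log2 ratio, 0.744 centred on run and 1.60 without the samples with high TMM factors. In that last setting MYH7 turned to -1.91 and MYH1 to 0.31, and between diets at day 131 MYH1 turned to 0.797. That setting takes only restricted steer 5 at day 99 out of the comparison between days in restricted steers. From the comparison between diets at day 131 it takes only control steer 5. On leaving samples out, the differences between days in restricted steers ran from -1.91 to 6.41 (MYH7), -1.76 to 1.60 (MYH2) and -4.80 to 0.31 (MYH1), those between diets at day 131 from -4.53 to 2.98 (MYH7) and -3.67 to 0.797 (MYH1), and that at day 99 from -2.61 to 0.752 (MYH2). Without a change of sign, the share differences ran from -6.61 to -1.50 for MYH1 at day 99 and from 0.691 to 4.09 for MYH2 at day 131, and between days in control steers from -5.10 to -1.70 (MYH2) and -7.10 to -2.63 (MYH1). Those of the interaction ran from -9.76 to -0.895 (MYH7), 0.462 to 5.32 (MYH2) and 0.386 to 5.47 (MYH1). As log2 ratios to the other 2 genes, the MYH7 difference between diets at day 99 was 0.305 and that between days in control steers 0.459, on a log2 scale and not in points.

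Among the correlations, r between days for MYH1 turned to -0.0318 without TMM, -0.0657 with median-ratio size factors and -0.0408 without the steers with a high TMM factor, where r for MYH7 was -0.313. Without TMM, r of MYH7 with MYH2 turned to -0.0994 and with MYH1 to -0.00821, and that of MYH2 with MYH1 passed the threshold at 0.761, as it did without control steer 4 (0.749). Leaving out each steer gave -0.223 to 0.479 (MYH7), -0.31 to 0.0747 (MYH2) and -0.19 to 0.159 (MYH1) between days, and 0.613 to 0.749 for MYH2 with MYH1. Over samples, the rho of MYH7 with MYH2 turned to -0.151 without TMM, -0.0699 in restricted steers and -0.378 at day 99, and with MYH1 to -0.127 and -0.161 without TMM and at day 99. Depth set a share to within 0.378 percentage points, well inside the spread between the 6 steers of a group.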
